A study of Mus musculus with 6 samples.

Results

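The 8 miRNAs described here are names known from liver (mmu-miR-122-5p, mmu-miR-122-3p, mmu-miR-192-5p, mmu-miR-194-5p and mmu-miR-802-5p) and from striated muscle (mmu-miR-206-3p, mmu-miR-1a-3p and mmu-miR-133a-3p). They were taken by name from a table of 1011 miRNA rows counted in mouse pancreatic islets, and all 8 were found. The question asked was which of them the islet samples held at a steady level and which rested on 1 library, the first of the NCD diet. The list was selected on values already seen, namely the levels in that library and the differences between diets, so both are given as a description. The groups were 3 libraries of primary islets from mice fed the diet labelled HFD and 3 from mice fed the diet labelled NCD, each numbered 1 to 3 by the labels. The labels name no strain, sex, age, time on diet or number of animals behind a library, so the spread between libraries of a diet may be technical.

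A miRNA is a short RNA that guides Argonaute proteins to messenger RNAs, mainly through its seed, bases 2 to 8 from the 5′ end. Tissue-restricted miRNAs of this kind are often used to trace cell types: miR-122 fills most of the miRNA pool of hepatocytes and supports lipid and cholesterol metabolism, while miR-1, miR-133 and miR-206 (the myomiRs) are switched on by muscle transcription factors during differentiation. The miRNAs miR-192 and miR-194 are made from a shared precursor in liver and also in intestine and kidney. miR-802 is known from mouse liver, where obesity raises it and where it disturbs glucose metabolism.

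Of the members, mature sequences are shown only for miR-192-5p, miR-194-5p, miR-802-5p and miR-206-3p. That of miR-215-5p is added because it shares a seed with miR-192-5p. All sequences shown are from RefSeq (GRCm38.p6), identical to the sequences in the deposited table, with the seed in capitals.
miR-192-5p: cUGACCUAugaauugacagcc
miR-215-5p: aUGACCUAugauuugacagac
miR-194-5p: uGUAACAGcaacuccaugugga
miR-802-5p: uCAGUAACaaagauucauccuu
miR-206-3p: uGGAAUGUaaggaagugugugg

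The hairpins of miR-192 (chromosome 19 from 6264844 to 6264932) and miR-194-2 (from 6264643 to 6264728) lie beside each other on the plus strand, outside other annotated genes. A second copy of miR-194-5p comes from the miR-194-1 hairpin (chromosome 1 from 185313319 to 185313385), next to that of miR-215 (from 185313581 to 185313692). Both lie within introns of Iars2 on the strand opposite to it, and miR-215 overlaps an exon of the antisense gene 2010103J01Rik. The miR-802 hairpin is on chromosome 16 from 93369720 to 93369816 (plus strand), outside other genes. The miR-206 hairpin (chromosome 1 from 20679010 to 20679082, plus strand) overlaps an exon of the long noncoding RNA Gm28653, as does that of the muscle miRNA miR-133b (from 20682769 to 20682887). miR-206-3p shares its seed with miR-1a-3p and differs from it at 4 of 22 bases. miR-192-5p and miR-215-5p differ at 3 of 21 bases, and miR-133a-3p and miR-133b-3p at 1 of 22. No other row of the table shares a seed with miR-122-5p, miR-122-3p, miR-194-5p or miR-802-5p.

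Library totals ran from 9431818 to 11059628 reads in HFD and from 7166712 to 11172255 in NCD islets. Levels are CPM, reads relative to the library total after scaling by its TMM (trimmed mean of M-values) factor, and a count of 0 allowed up to 0.213 to 0.445 CPM, taken as 3 reads. That factor was 1.73 for NCD 3 and 0.84 to 0.995 elsewhere, so levels in NCD 3 depend most on the scaling. Intervals given are 95% and cover counting error only. The 6 islet endocrine marker miRNAs, led by miR-375-3p, had reads in every library. They summed to 486900 to 575400 CPM in HFD and 277300 to 628900 CPM in NCD islets, with NCD 3 lowest under TMM scaling. That place depends on the scaling. miR-375-3p had 170800 CPM in NCD 3 and 233400 CPM in HFD 3. Yet it held 2403605 of 8121430 reads in NCD 3, a larger share than its 2566704 of 11059628 in HFD 3. Ligation-based libraries favour some miRNA ends, so a level of 1 miRNA is better compared between libraries than with another miRNA. In such bulk samples a change in the number of cells of a type and a change in RNA per cell cannot be told apart.

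**Figure D1:**
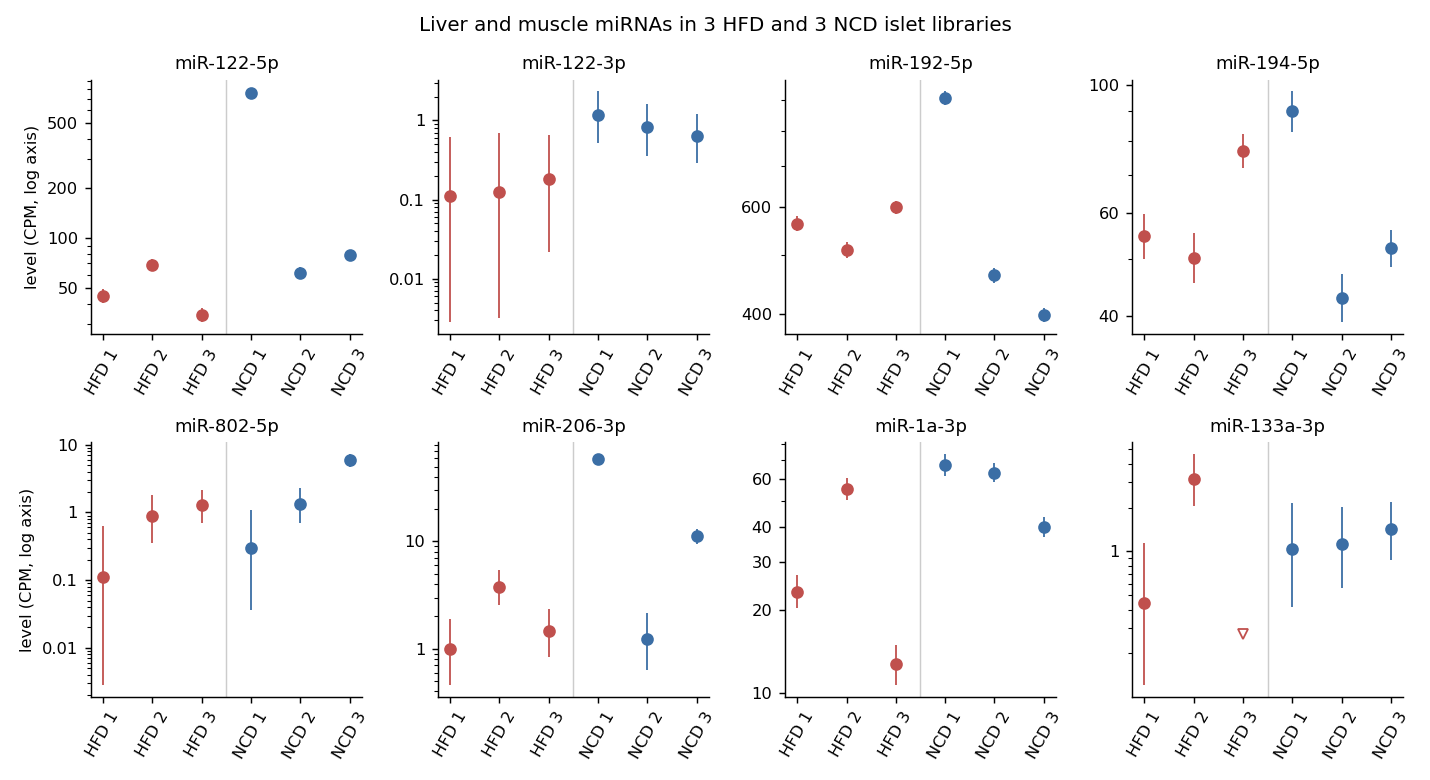
Level of each of the 8 miRNAs in each library (CPM on a log axis whose range differs between panels; HFD libraries in red, NCD libraries in blue; bars are 95% Poisson intervals, and the open triangle marks the limit of a count of 0). miR-122-5p and miR-206-3p stand far above the rest in NCD 1, miR-802-5p stands highest in NCD 3, and miR-192-5p and miR-194-5p vary by little more than a factor of 2.

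Among the liver miRNAs, miR-122-5p had the clearest dependence on NCD 1. Its level was 44.3, 68.3 and 34.1 CPM in HFD 1, 2 and 3, and 757, 61.3 and 78.5 CPM in NCD 1, 2 and 3. These values rest on 398, 541 and 375 reads in the HFD libraries and on 5103, 598 and 1105 reads in the NCD libraries. NCD 1 was 9.64-fold above the highest other library (5.23-fold with library totals as the only scaling), whereas NCD 2 lay inside the HFD range. NCD 3 was 1.15-fold above the highest HFD library, or 2.37-fold on library totals. NCD 1 held 72.5% of the level summed over the 6 libraries, where equal levels would put 16.7% in each. By abundance miR-122-5p ranked 135 to 158 of the 1011 rows in HFD libraries, and 40 in NCD 1 against 118 and 124 in the other NCD libraries. The row of miR-122b-3p, its reverse complement, repeats the same 8120 reads and is no second measurement.

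The other arm of the same hairpin was also highest in NCD 1, but only 1.45-fold above the next library (1.01-fold on library totals). miR-122-3p had 1, 1 and 2 reads in HFD 1, 2 and 3, and 8, 8 and 9 reads in NCD 1, 2 and 3. Its levels were 0.111, 0.126 and 0.182 CPM in the HFD libraries and 1.19, 0.82 and 0.64 CPM in the NCD libraries. All 3 HFD libraries were thus below all 3 NCD libraries, but the counting intervals of HFD 3 (0.022 to 0.657 CPM) and NCD 3 (0.293 to 1.21 CPM) overlap. This miRNA was too rare for the filter on low counts. For scale, every HFD library lay below every NCD library for 4.93% of the 406 miRNAs that passed the filter, none of them a member. In NCD 1 there were 638 reads of the 5p arm per read of the 3p arm (324 to 1478), against 74.8 (37.7 to 174) in NCD 2 and 123 (64.4 to 269) in NCD 3. The ratio in NCD 1 therefore exceeded that of both other NCD libraries beyond counting error. In HFD 1, 2 and 3 it was 398, 541 and 188, with intervals too wide to place them (51.6 to 1554 in HFD 3).

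miR-192-5p was the most abundant of the 8 by reads in every library, at 563, 510 and 599 CPM in HFD 1, 2 and 3, and at 905, 463 and 398 CPM in NCD 1, 2 and 3. NCD 1 was again highest, 1.51-fold above the next library, and under TMM scaling the other NCD libraries lay below the whole HFD range. On library totals alone NCD 3 was instead 1.16-fold above the highest HFD library. miR-194-5p had 54.8, 50.4 and 77.0 CPM in HFD 1, 2 and 3, and 90.0, 42.9 and 52.3 CPM in NCD 1, 2 and 3. Its highest library exceeded its lowest by 2.1-fold, as against 2.27-fold for miR-192-5p and 22.2-fold for miR-122-5p. Both ranked among the 145 most abundant rows of every library, with best ranks of 36 for miR-192-5p and 112 for miR-194-5p. NCD 1 held 26.3% of the summed level of miR-192-5p and 24.5% of that of miR-194-5p.

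The balance between these cluster partners varied little. There were 10.3, 10.1 and 7.77 reads of miR-192-5p per read of miR-194-5p in HFD 1, 2 and 3, and 10.1, 10.8 and 7.61 in NCD 1, 2 and 3, so the highest ratio was 1.42 times the lowest. The libraries numbered 3 of both diets were the low ones, beyond counting error (7.24 to 8.36 in HFD 3 and 7.05 to 8.23 in NCD 3). Reads of miR-122-5p per read of miR-192-5p were instead 0.0787, 0.134 and 0.057 in HFD 1, 2 and 3 and 0.836, 0.132 and 0.197 in NCD 1, 2 and 3. The 2 liver miRNAs thus kept no fixed proportion, and NCD 1 held more miR-122-5p for its miR-192-5p than any other library. Of miR-215-5p, which has the seed of miR-192-5p, NCD 1 held 5.93 CPM, within the range of 5.55 to 14.4 CPM in HFD and below the 7.48 and 6.33 CPM of NCD 2 and NCD 3. The 3p arm of the miR-194-2 hairpin likewise showed no excess in NCD 1, at 1.93 CPM, against 1.23 to 2.78 CPM in HFD islets and 3.18 and 1.85 CPM in NCD 2 and NCD 3.

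miR-802-5p was scarce and ran the other way. It had 1, 7 and 14 reads in HFD 1, 2 and 3, and 2, 13 and 83 reads in NCD 1, 2 and 3. Its levels were 0.111, 0.883 and 1.27 CPM in the HFD libraries and 0.297, 1.33 and 5.9 CPM in the NCD libraries. NCD 3 was 4.43-fold above the next library (8.07-fold on library totals) and NCD 1 was the second lowest of the 6, holding 3.03% of the summed level. The 3p arm of its hairpin had 4, 0 and 5 reads in HFD 1, 2 and 3 and 1, 1 and 29 reads in NCD 1, 2 and 3, with NCD 3 again highest. The 4 acinar marker miRNAs, of which 2 had reads in every library, summed to 20.2, 139 and 205 CPM in HFD 1, 2 and 3, and to 111, 173 and 418 CPM in NCD 1, 2 and 3. Both miR-802-5p and these markers were thus lowest in HFD 1, second lowest in NCD 1 and highest in NCD 3, and the part of acinar RNA in the level of miR-802-5p was not tested. Across the 406 tested miRNAs, 4.68% had a level in NCD 3 that was at least double that of the highest other library.

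Among the muscle miRNAs, miR-206-3p, which is largely restricted to skeletal muscle, was the one that stood out. It had 9, 30 and 16 reads in HFD 1, 2 and 3, and 400, 12 and 157 reads in NCD 1, 2 and 3. These are 1.0, 3.79 and 1.46 CPM in the HFD libraries, and 59.3, 1.23 and 11.2 CPM in the NCD libraries. NCD 1 was 5.32-fold above NCD 3, which was itself 2.95-fold above the highest HFD library, while NCD 2 lay within the HFD range. With library totals as the only scaling, NCD 1 was 2.89-fold above NCD 3, and NCD 3 was 6.08-fold above the highest HFD library. NCD 1 held 76.1% of the summed level. Under either scaling 2 NCD libraries, NCD 1 and NCD 3, were above the whole HFD range for miR-206-3p, as they were for miR-122-5p, by a smaller margin in NCD 3.

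miR-1a-3p, found in both heart and skeletal muscle, was present throughout. Its level was 23.4, 55.2 and 12.7 CPM in HFD 1, 2 and 3, and 67.3, 63.1 and 40.2 CPM in NCD 1, 2 and 3. Under TMM scaling HFD 2 lay between NCD libraries, so the diets overlapped, and NCD 1 was 1.07-fold above the next library. On library totals alone the levels were 19.7, 46.3 and 12.7 CPM in HFD 1, 2 and 3, and 63.3, 55.1 and 69.7 CPM in NCD 1, 2 and 3. Every HFD library was then below every NCD library, as it was for 9.11% of the 406 tested miRNAs on that scale, so the overlap of the diets depended on the scaling of NCD 3. Its row and that of miR-1b-5p, its reverse complement, differed by 1 read in 2423 and appear to hold the same reads. miR-133a-3p, which is made from precursors shared with miR-1, had 4, 25 and 0 reads in HFD 1, 2 and 3, and 7, 11 and 20 reads in NCD 1, 2 and 3. At 1.04 CPM in NCD 1, against 3.16 CPM in HFD 2 and 1.13 and 1.42 CPM in NCD 2 and NCD 3, it showed no excess in NCD 1.

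The myomiRs thus did not move together. Reads of miR-206-3p per read of miR-1a-3p were 0.0429, 0.0686 and 0.114 in HFD 1, 2 and 3, and 0.881, 0.0195 and 0.277 in NCD 1, 2 and 3, a 45.2-fold range. The interval in NCD 1 (0.768 to 1.01) lay above those of all other libraries. miR-133b-3p, whose hairpin lies in the same long noncoding RNA as that of miR-206, had 3 reads in all, of which 2 were in NCD 1. The passenger arm miR-133a-5p had 8 reads in NCD 1, 4 in NCD 3 and 0 in the other libraries. The cardiac and slow-muscle miRNA miR-499-5p was at 1.36 to 4.67 CPM in HFD and at 1.56 to 3.26 CPM in NCD islets, with HFD 2 highest. Of the 22 other products and relatives of these miRNAs that were looked for, 12 had a row in the table, and the other 10, among them the heart miRNAs miR-208a and miR-208b, are not analysed here.

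**Figure D2:**
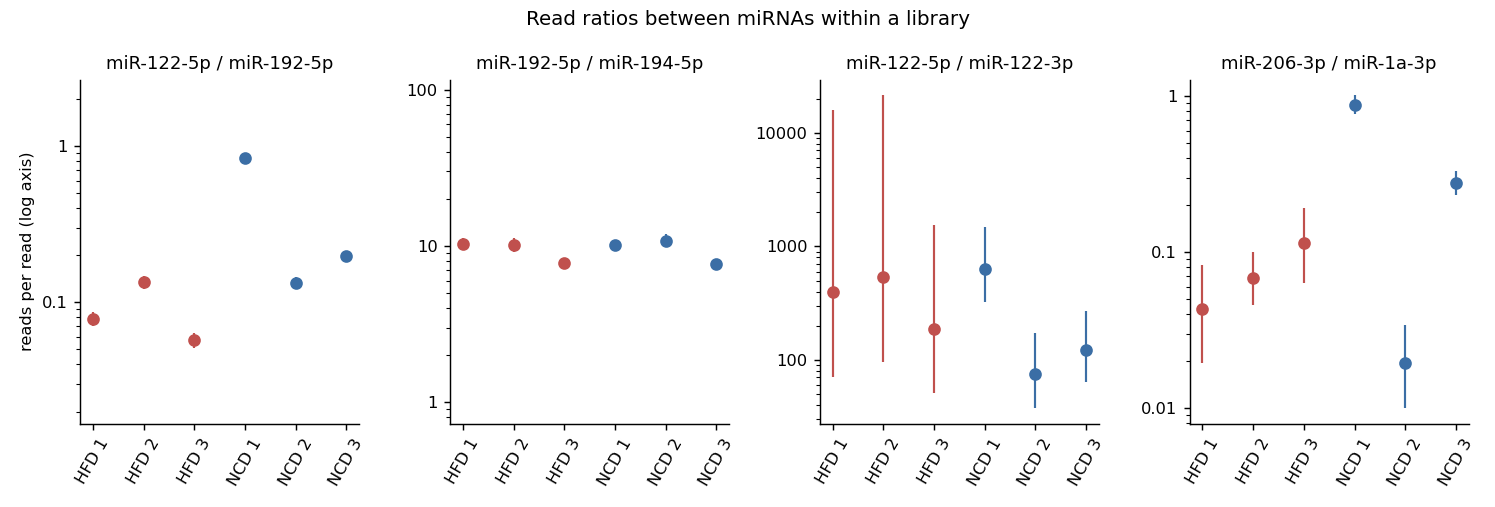
Reads of one miRNA per read of another within each library (log axes; HFD libraries in red, NCD libraries in blue; bars are exact 95% binomial intervals). The ratio of miR-192-5p to miR-194-5p runs from 7.61 to 10.8, whereas that of miR-122-5p to miR-192-5p reaches 0.836 in NCD 1 and that of miR-206-3p to miR-1a-3p 0.881.

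Among all tested miRNAs, miR-122-5p and miR-206-3p headed the order of excess in NCD 1, and the other members lay further down. NCD 1 was the highest library for 5 of the 6 members that passed the filter, where 17.7% of the 406 tested miRNAs had their highest level in NCD 1. With library totals as the only scaling this count was 3 of 6, since miR-194-5p and miR-1a-3p were then below another library. At least doubled levels in NCD 1 over the highest other library were found for 1.72% of the tested miRNAs, or 7 rows. These were miR-122-5p, its partner row miR-122b-3p, miR-206-3p, miR-7688-5p (3.0-fold), the leukocyte miRNA miR-142a-5p (2.78-fold), miR-6906-3p (2.19-fold) and miR-139-3p (2.16-fold). By this ratio miR-122-5p ranked first, miR-206-3p behind it and its partner row, miR-192-5p 17th, miR-194-5p 49th, miR-1a-3p 62nd and miR-802-5p 401st. The rule behind the members' choice used the values of NCD 1, so nothing is read from these counts.

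**Figure D3:**
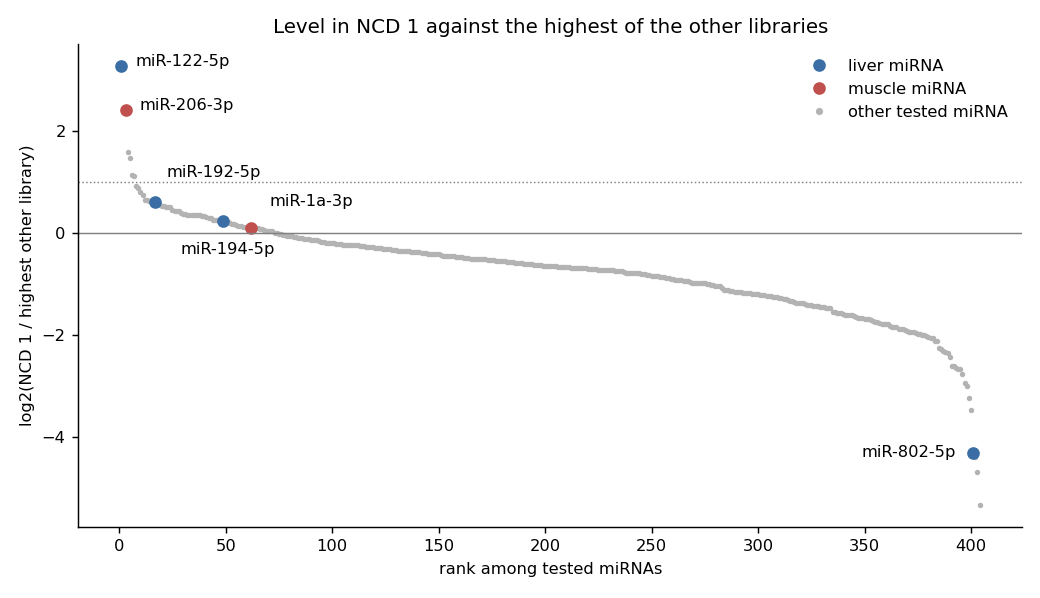
Log2 ratio of the level in NCD 1 to the highest of the other 5 libraries for the tested miRNAs in rank order (2 miRNAs with 0 reads in NCD 1 are not drawn; the dotted line marks a doubling). miR-122-5p at 3.27 and miR-206-3p at 2.41 head the order, while miR-192-5p, miR-194-5p and miR-1a-3p lie on the continuous slope and miR-802-5p is near its foot.

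Some other marker lists, but not all, were also highest in NCD 1. The islet endocrine sum was highest there, at 628900 CPM, followed by 591100 CPM in NCD 2. The acinar sum in NCD 1, at 111 CPM, lay within the HFD range of 20.2 to 205 CPM. The 5 leukocyte miRNAs, all with reads in every library, summed to 6.18 to 13.2 CPM in HFD islets, and to 30.4 CPM in NCD 1 against 13.0 and 13.4 CPM in NCD 2 and NCD 3. Of these, miR-142a-5p, miR-142a-3p and miR-223-3p were highest in NCD 1, whereas miR-150-5p was highest in NCD 3 and miR-155-5p, at 1.93 CPM, was second lowest in NCD 1. The 2 endothelial miRNAs, miR-126a-3p and miR-126a-5p, summed to 300 to 434 CPM in HFD islets and to 748, 568 and 346 CPM in NCD 1, 2 and 3. The 4 erythroid miRNAs, led by miR-451a, summed to 47.8 to 155 CPM in HFD islets and 143, 39.8 and 117 CPM in NCD 1, 2 and 3, so NCD 1 was not the highest library. Of these 4, miR-144-3p and miR-144-5p were at 0 in at least 1 library. The 4 fibroblast and smooth muscle miRNAs, led by miR-143-3p, summed to 1325 to 4968 CPM in HFD and 1510 to 2972 CPM in NCD islets, with 1895 CPM in NCD 1. All these sums use TMM scaling, whose factor of 1.73 lowers NCD 3 most. On library totals alone the leukocyte sum of NCD 3 would lie closer to that of NCD 1. The part of blood or vessel cells in the level of miR-122-5p or miR-206-3p was not tested.

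Patterns over the 6 libraries were compared as the root mean square difference of log2 levels, each centred on its own mean, with a smaller value for a closer likeness. Among 387 other miRNAs, the nearest to miR-122-5p were miR-6906-3p (0.86), miR-7688-5p (0.87) and the predicted miRNA novel_195 (0.90). Next came miR-126a-5p and its reverse complement miR-126b-3p (0.96 each), whose rows repeat the same 664 reads and are 1 measurement. The median over all was 1.58. Of the members, miR-206-3p was at 0.98 from miR-122-5p, miR-1a-3p at 1.14, miR-192-5p at 1.24, miR-194-5p at 1.3 and miR-802-5p at 2.56. The values of NCD 1, known when the members were chosen, enter these distances, so nothing is read from them. Nearest to miR-206-3p outside the members were miR-147-3p (1.22), miR-877-3p (1.41), miR-17-5p (1.48), miR-451a (1.51) and miR-151-5p (1.52), with a median of 2.2 over all. The first 3 neighbours of miR-122-5p were rare, at 0.455 to 3.56 CPM for miR-6906-3p and novel_195 and at 2.05 to 9.35 CPM for miR-7688-5p.

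The diet comparison asked whether the level of these miRNAs depended on HFD feeding. The test was edgeR's quasi-likelihood test over all 406 miRNAs that passed the filter, called at a Benjamini-Hochberg adjusted p under 0.05, and 0.246% of the tested miRNAs were called. Of the 8 members, 6 were tested, 0 were called and 2 had an unadjusted p under 0.05, as had 10.1% of all tested miRNAs. DESeq2, which called 0.743% of its 404 adjusted p, and limma-voom, which called 1 of 406 miRNAs, also called 0 of the 6. For miR-122-5p, however, DESeq2 gave neither an unadjusted nor an adjusted p. All 6 had a negative log2 fold change, meaning a lower fitted level in HFD, as had 48.5% of all tested miRNAs, and their median was -1.4 against 0.015 over all. The members' values had been seen when they were chosen, so these counts are not evidence about the diets.

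The mean of miR-206-3p was 2.08 ± 1.49 CPM under HFD against 23.9 ± 31.1 CPM under NCD (SD, n = 3 each). Its log2 fold change was -3.5 ± 1.03 (SE), with an edgeR adjusted p of 0.277. That of miR-122-5p was 48.9 ± 17.5 CPM under HFD against 299 ± 397 CPM under NCD. The log2 fold change was -2.61 ± 0.77 and the edgeR adjusted p 0.277. In both the NCD standard deviation exceeded the NCD mean. With limma-voom the log2 fold changes were -2.32 for miR-206-3p and -1.66 for miR-122-5p. For miR-802-5p the means were 0.756 ± 0.591 CPM under HFD and 2.51 ± 2.98 CPM under NCD, with a log2 fold change of -1.89 ± 0.89 (adjusted p = 0.48). For miR-1a-3p they were 30.4 ± 22.1 CPM under HFD and 56.9 ± 14.6 CPM under NCD, with -0.91 ± 0.47 (adjusted p = 0.505). The diets were closest for the cluster partners. miR-192-5p had means of 557 ± 44.7 CPM under HFD and 589 ± 276 CPM under NCD (log2 fold change -0.08 ± 0.35, adjusted p = 0.934), and miR-194-5p of 60.7 ± 14.3 CPM under HFD and 61.8 ± 24.9 CPM under NCD (-0.01 ± 0.37, adjusted p = 0.99).

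The comparison was repeated on the 5 libraries other than NCD 1. The members were also chosen with the differences between diets known, so these values are not free of that choice either. Without NCD 1, edgeR called 0 of 450 tested miRNAs, 30 had an unadjusted p under 0.05, and 7 members were tested. Their median log2 fold change was -0.59, against -0.045 over all, of which 53.8% were negative. The log2 fold change of miR-122-5p was then -0.59 ± 0.4 (SE, adjusted p = 0.751), with 48.9 CPM in HFD and 69.9 CPM in the mean of NCD 2 and NCD 3. That of miR-206-3p was -1.79 ± 0.83 (adjusted p = 0.696). miR-192-5p and miR-194-5p turned to 0.31 ± 0.32 and 0.28 ± 0.37, with adjusted p of 0.909 and 0.937. miR-1a-3p hardly moved, at -0.84 ± 0.53 (adjusted p = 0.751), and miR-802-5p reached -2.35 ± 0.83 (adjusted p = 0.58). miR-133a-3p, which passed the filter here, had -0.35 ± 1.01.

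Leaving out either of the other NCD libraries had the opposite effect on miR-122-5p and miR-206-3p. Without NCD 2, where 0.901% of the 444 tested miRNAs were called and 0.676% as lower in HFD, miR-122-5p and miR-206-3p were called as lower in HFD, with log2 fold changes of -3.09 and -4.09 and edgeR adjusted p of 0.00574 and 0.0033. Without NCD 3, where 0.674% of 445 were called and 0.449% as lower in HFD, miR-122-5p was called (-3.12, adjusted p = 0.0389) and miR-206-3p was not (-3.91, adjusted p = 0.11). Without a filter on low counts, where 0.791% of 1011 rows were called and 0.495% as lower in HFD, both were called, with edgeR adjusted p of 3.49e-08 for miR-122-5p and 1.38e-08 for miR-206-3p. Their log2 fold changes there, -2.7 ± 0.42 and -3.6 ± 0.53, were near those with the filter. The SE were smaller than the 0.77 and 1.03 with the filter, and NCD 1 was included. With the filter, the robust form of edgeR's quasi-likelihood test gave both an adjusted p of 0.466. The small unfiltered values thus depend on the setting and are not read as evidence about the diets. In the unfiltered fit miR-122-3p had a log2 fold change of -2.49 ± 1.18 (adjusted p = 0.496) and miR-133a-3p one of -0.26 ± 0.73. For miR-802-5p NCD 3 decided the value, which was -0.2 ± 0.91 once NCD 3 was left out. That of miR-1a-3p was -1.69 ± 0.44 without HFD 2 (adjusted p = 0.287) and -0.6 ± 0.45 without HFD 3.

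**Figure D4:**
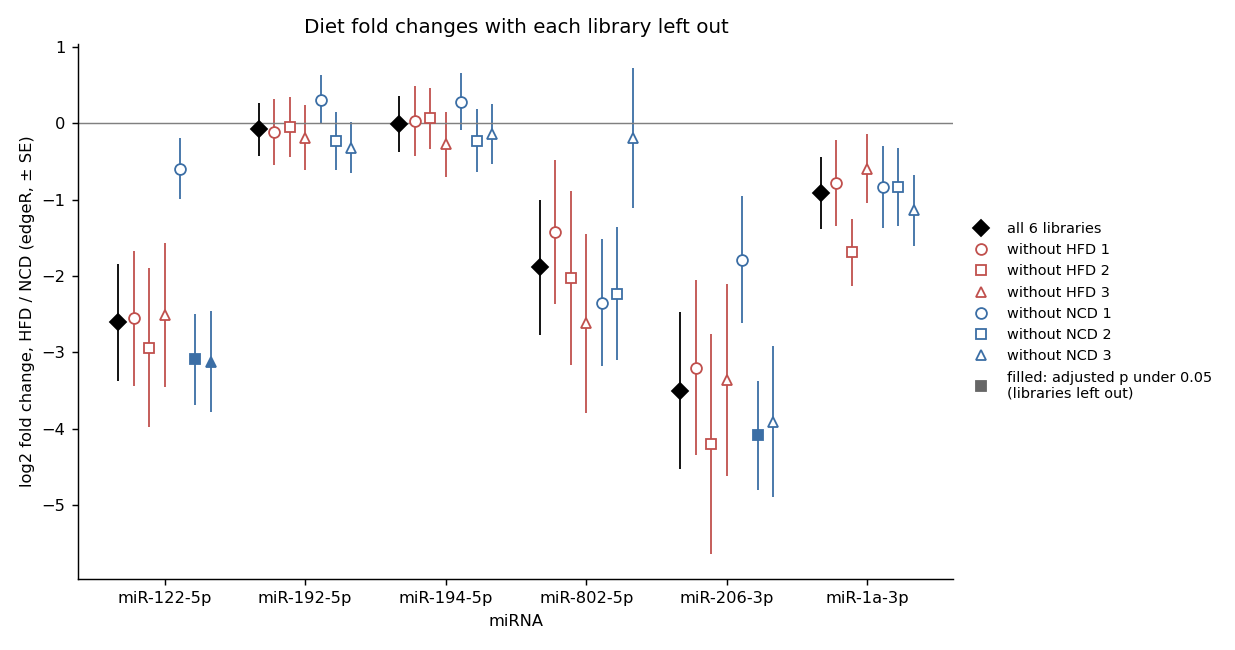
Log2 fold change of HFD over NCD for the 6 members tested with all libraries (edgeR, ± SE), with all 6 libraries (black diamonds) and with each library left out. miR-122-5p lies at -0.59 without NCD 1 and between -3.12 and -2.51 otherwise, and miR-802-5p lies at -0.2 without NCD 3.

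Of the listed relatives, 5 were tested and 0 were called with edgeR. Apart from the partner rows miR-122b-3p and miR-1b-5p, they were miR-215-5p, with a log2 fold change of 0.54 ± 0.45 (SE), miR-499-5p with 0.25 ± 0.61 and miR-194-2-3p with -0.17 ± 0.56. These 3 had edgeR adjusted p of 0.629, 0.918 and 0.918.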

How the data were processed

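The deposited table gives, per the file headers, a raw read count and a TPM value for each mature miRNA and library. The authors' deposited TPM values equal CPM on the library total (relative difference at most 4.61e-09) and were not used further. No label or header used here names the aligner, counter, strand setting or miRNA release. Per the labels' protocols, column-purified total RNA and a NEBNext small RNA kit were used.

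Members, relatives and marker lists were chosen with earlier results of these data known. Counts were tested with edgeR 4.0.16 (R 4.3.3): filterByExpr (minimum count 10), TMM, estimateDisp, glmQLFit without its legacy setting, glmQLFTest, diet as the only term, Benjamini-Hochberg adjustment over all tested miRNAs. DESeq2 1.42.0 and limma 3.58.1 (voom) were alternatives. Further ones were other size factors, filters, a replicate block, the robust quasi-likelihood test, 1 row per reverse-complementary pair (at least 18 bases) and each library left out. Named non-members were the 5 nearest by likeness and those at least doubled in NCD 1. Levels use the full library total times the TMM factor. Libraries of a diet differed beyond sampling noise (chi-square of 378 or more per degree of freedom).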

Additional observations from a re-analysis of the deposited data

How the results depend on the processing

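The count of called miRNAs was 1 with all libraries. Scaling by library totals alone gave 0, dropping the filter 8 and DESeq2 3, and leaving out 1 library gave 0 to 4. The count of called members was 0. Dropping the filter gave 2, and leaving out 1 library gave 0 to 2, with 1 without NCD 3 and 2 without NCD 2. The legacy quasi-likelihood setting was added after the data were seen and left both counts as they were. The number of miRNAs at least doubled in NCD 1 was 7, against 4 with library totals only, 9 with RLE factors and 3 among miRNAs with a mean of at least 100 counts, where fewer miRNAs were compared. Among the 6 tested members, the sign of the log2 fold change turned for miR-192-5p and miR-194-5p alone. It became 0.018 and 0.048 with limma-voom, and 0.31 and 0.28 without NCD 1. For miR-194-5p it was also 0.03 without HFD 1 and 0.064 without HFD 2. With 1 library left out, the lowest values were -0.32 for miR-192-5p and -0.28 for miR-194-5p. Library totals only lowered the median over all miRNAs to -0.37. What causes these shifts was not tested.

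With the replicate number as a block, the count of called miRNAs was 1 and that of members 0, and the log2 fold changes of miR-192-5p and miR-194-5p were 0.016 and 0.029. For miR-122-5p and miR-206-3p they were -1.66 and -2.92 with the block and -1.66 and -2.32 with limma-voom, against -2.61 and -3.5 without either. Deviations of same-numbered libraries correlated at 0.17, -0.24 and 0.35, which does not make the numbers pairs. The labels describe no molecular identifiers, so intervals cover counting error of reads only, and values under about 10 reads, as for miR-122-3p, miR-133a-3p and miR-802-5p in several libraries, are limited by counting error.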
